A study of Mus musculus with 3 samples.

Results

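Mecom, Hlf, Procr, Hmga2, Ifitm1, Mllt3, Angpt1, Esam and Adgrg1 are 9 genes known from the stem cell end of the blood system, and they were taken by symbol from the 32285 genes counted in mouse bone marrow. All 9 had UMIs (unique molecular identifiers, each counting 1 captured RNA molecule) in all 3 libraries. The title of the study names the question: how ZNF384 fusion oncoproteins drive lineage aberrancy. The 2 fusion libraries carried the Ep300-Znf384-V5-HA knock-in genotype, and the 1 other library was wild type. All came from male mice aged 6 weeks, from femur and tibia marrow after red cell lysis. For each library 5000 live cells sorted from whole marrow were mixed with 5000 sorted live cells that lacked lineage markers, and single cells were captured in droplets and tagged at the 3' end of their RNA (10x Genomics chemistry, version 3.1). The labels name no separate animals, so the p-values below measure only the spread between these libraries, which may be technical. With 1 wild-type library, genotype and library cannot be told apart. The spread came from the 2 fusion libraries alone, 1 residual degree of freedom, and was taken to hold for wild type too.

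Blood stem cells stay in the marrow through a network of transcription factors and surface receptors that is lost as progenitors commit to a lineage. Mecom is a zinc finger transcription factor needed for stem cell maintenance, Hlf a leucine zipper factor that marks stem cells, and Hmga2 a chromatin protein that is high in fetal stem cells and repressed by let-7 microRNAs. Mllt3 reads acylated histones and recruits elongation factors. Procr, the receptor of activated protein C, Esam, an adhesion molecule shared with endothelium, and Adgrg1, an adhesion G protein-coupled receptor, are surface proteins used to sort stem cells. Ifitm1 is an interferon-inducible membrane protein, and Angpt1 is the ligand of the receptor Tek.

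The libraries held 9057 and 8122 barcodes for fusion and 9354 for wild type, with 97192347 and 111836603 UMIs against 93262028. After filtering, 7307 and 6894 fusion cells and 7434 wild-type cells remained, with median UMI counts of 7344 and 10014 against 7434, and library pairs shared 19 to 23 barcodes. Over all cells, Ep300, the targeted acetyltransferase gene, was at 69.2 and 52.9 CPM (a gene's UMIs over all UMIs of the same cells in that library, scaled to the usual CPM total) in fusion and 85.8 in wild type. Zfp384, the mouse ZNF384 gene, was at 26.5 and 19.5 CPM against 15.5. Clustering without the 9 genes gave 42 clusters, of which 35 were joined into 16 classes, 6 stayed unnamed (3203 cells) and 1 small cluster of 5 and 6 fusion cells and 28 wild-type cells entered no class. The stem and multipotent progenitor class was 1 cluster of 208 and 213 fusion cells and 138 wild-type cells, led by Hlf, Adgrl4, Myct1, Serpina3g and Hmga2, among others. Hlf and Hmga2 thus led it although neither was used to form or name it. The lymphoid progenitor class was 1 cluster led by Dntt, with 65 and 64 fusion cells and 306 wild-type cells. A cluster with stem and erythroid markers mixed was called Gata2 Meis1 progenitors after 2 genes it expressed.

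In stem and multipotent progenitors, Mecom, Hmga2 and Ifitm1 were lower in the fusion libraries, while Hlf and the surface genes Procr, Esam and Adgrg1 did not pass the test. Mecom (ENSMUSG00000027684, chromosome 3, 29951296 to 30548008 on the minus strand in GRCm38) was at 18.5 and 20.6 CPM in fusion (19.6 ± 1.49, SD, n = 2), from 39 and 52 UMIs, against 45.3 CPM in wild type, from 67 UMIs. Both fusion libraries were well below wild type and close to each other. The fitted log2 fold change, fusion over wild type, was −1.19 ± 0.27 (SE, edgeR quasi-likelihood test, Benjamini-Hochberg adjusted p = 0.0107). The annotation places 7 other genes within the bounds of Mecom, 2 of them on the opposite strand, and the sources used here do not say whether the counting used strand.

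Hmga2 (ENSMUSG00000056758, chromosome 10, 120361275 to 120476469, minus strand) was at 50.8 and 65.9 CPM in fusion (58.4 ± 10.6, SD, n = 2), against 108.8 CPM in wild type, with 107, 166 and 161 UMIs. Its log2 fold change was −0.88 ± 0.20 (edgeR adjusted p = 0.0140), and the gap to wild type was wider than the gap between the fusion libraries. Ifitm1 (ENSMUSG00000025491, chromosome 7, 140967221 to 140969825, plus strand) was at 352 and 353 CPM in fusion against 846 CPM in wild type. The fusion libraries were almost equal for Ifitm1, and the log2 fold change was −1.26 ± 0.20 (edgeR adjusted p = 3.74e-05).

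Hlf (ENSMUSG00000003949, chromosome 11, 90336536 to 90390895, minus strand) stood at 201 and 185 CPM in fusion against 189.8 CPM in wild type, so the wild-type value lay between the fusion values (log2 fold change 0.03 ± 0.20, edgeR adjusted p = 0.993). Among the surface genes, Procr (ENSMUSG00000027611) had 15.2 and 9.13 CPM in fusion against 18.2 in wild type, from at most 32 UMIs per library (log2 fold change −0.60 ± 0.39, edgeR adjusted p = 0.838). Esam (ENSMUSG00000001946) had 10.9 and 8.73 CPM against 6.75, from at most 23 UMIs, too few to place it firmly on either side (0.53 ± 0.55, edgeR adjusted p = 0.941). Adgrg1 (ENSMUSG00000031785) was abundant, at 554 and 518 CPM against 490.4, and both fusion libraries lay a little above wild type (0.14 ± 0.21, edgeR adjusted p = 0.968). The ligand gene Angpt1 (ENSMUSG00000022309), on chromosome 15 like Ep300 but 38.9 Mb away, was at 235 and 179 CPM against 214, with wild type between the fusion libraries. Mllt3 (ENSMUSG00000028496) was at 32.3 and 19.4 CPM against 41.2, below wild type in both fusion libraries but with a wide gap between them (−0.69 ± 0.27, edgeR adjusted p = 0.4504).

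**Figure D1:**
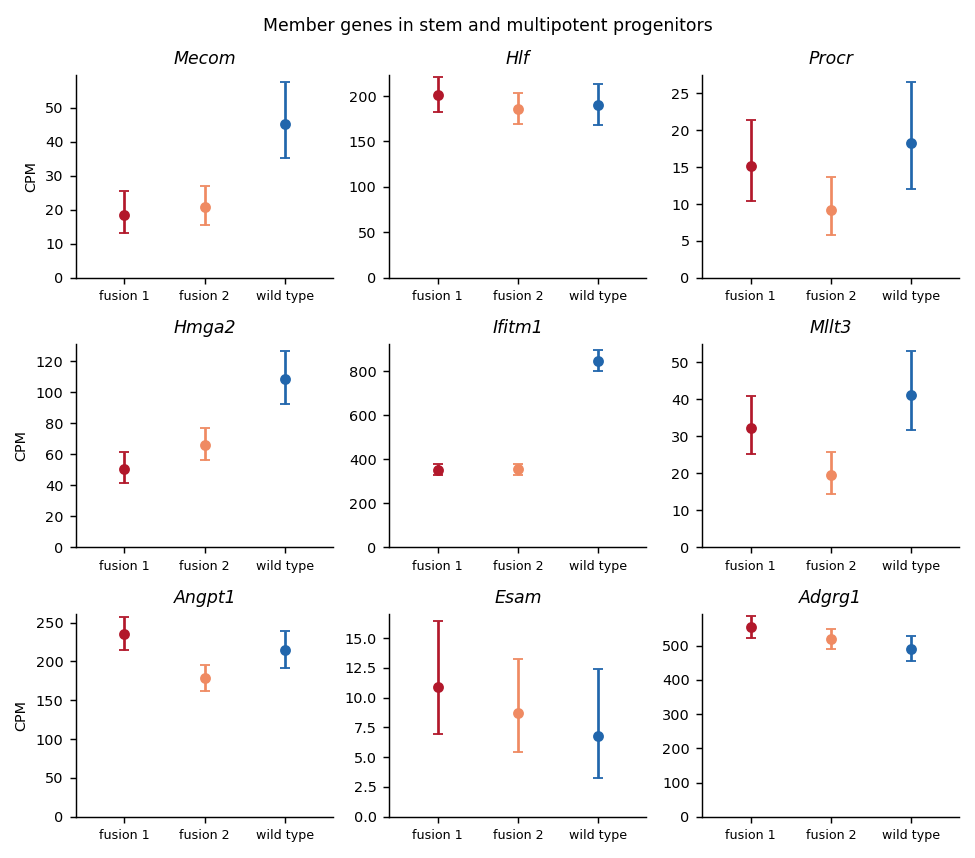
Levels in CPM of the 9 genes in the stem and multipotent progenitor class, 1 point per library (2 fusion libraries, then wild type), with exact 95% Poisson intervals that cover counting error only; each panel has its own axis from 0. Mecom, Hmga2 and Ifitm1 lie lower in both fusion libraries than in wild type, and Hlf lies at 201 and 185 CPM in fusion beside 189.8 CPM in wild type.

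Thus 3 of the 9 genes passed the test in this class, all lower, where 0.479% of the 10220 genes tested were called lower and 0.607% in either direction. The 9 genes were chosen with earlier results of these data known, so nothing is read from this share or from those in other classes. The calls in the stem class depend on the processing. The Wald test of DESeq2 called 0 genes in this class (66 at an unadjusted p under 0.05), and edgeR called 0 when predicted doublets were kept (547 unadjusted). With DESeq2 size factors in edgeR, Hmga2 was no longer called (−0.88, edgeR adjusted p = 0.0680). With the 9 genes allowed into the clustering, 3 genes were called and only Ifitm1 of the 9. At the coarser resolutions tried, no separate stem class formed, and the finer one used here was chosen after seeing that. When stem and lymphoid progenitors were joined, Mecom and Ifitm1 were no longer called (−0.19 and −0.42), Hmga2 was (−1.13 ± 0.18, edgeR adjusted p = 0.000126) and Hlf was called higher (1.05, edgeR adjusted p = 0.000651). Lymphoid progenitors make up far more of that joined class in wild type (306 of 444 cells) than in fusion (65 of 273 and 64 of 277).

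**Figure D2:**
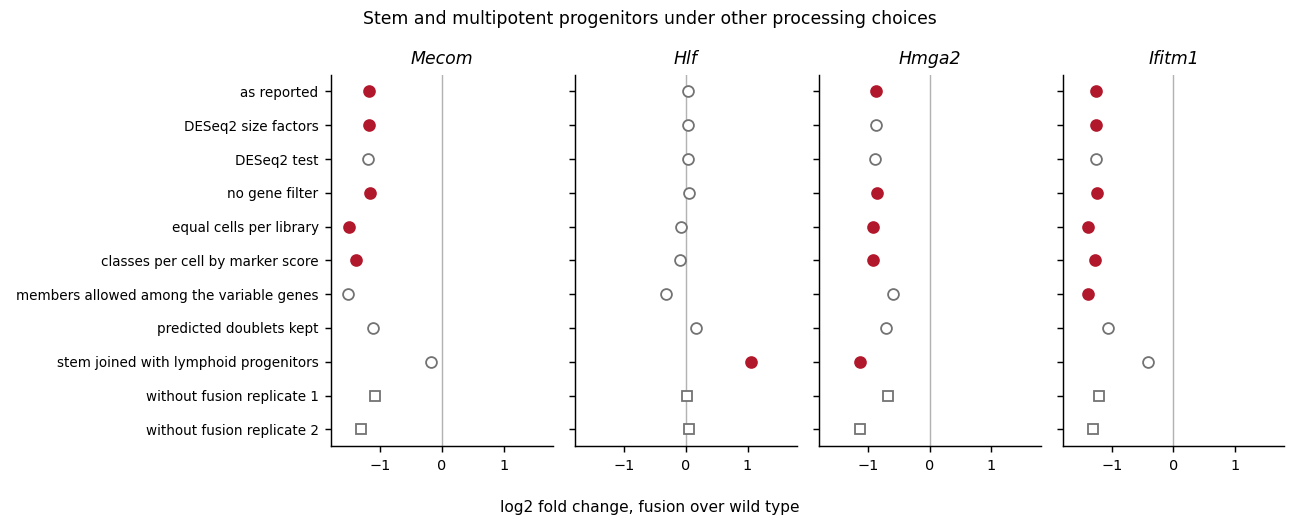
Log2 fold change, fusion over wild type, of Mecom, Hlf, Hmga2 and Ifitm1 in stem and multipotent progenitors as reported and under each other processing choice; filled red circles passed an adjusted p of 0.05, open circles did not, and open squares leave out 1 fusion library and carry no test. Mecom, Hmga2 and Ifitm1 stay below 0 in every setting shown, between −1.52 and −0.19 for Mecom, while Hlf moves from near 0 to 1.05 only where stem and lymphoid progenitors are joined.

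Where the data hold members that moved together, the sequence before their start is shown from RefSeq (GRCm38.p6), for the 3 genes called lower and for Hlf, which was not called. Each run gives the 250 bases before the start, 5' to 3' on the strand of the gene. Capitals mark matches to 5 motifs searched on both strands, up to 50 bases past the start. Of the 9 genes, 7 had such windows.
Mecom (chr3:30509760-30510009, minus strand): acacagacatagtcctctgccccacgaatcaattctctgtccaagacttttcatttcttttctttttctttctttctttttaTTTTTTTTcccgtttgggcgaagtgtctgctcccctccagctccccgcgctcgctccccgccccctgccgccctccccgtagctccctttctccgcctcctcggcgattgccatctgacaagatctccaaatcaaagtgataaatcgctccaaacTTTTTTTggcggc
Hmga2 (chr10:120476470-120476719, minus strand): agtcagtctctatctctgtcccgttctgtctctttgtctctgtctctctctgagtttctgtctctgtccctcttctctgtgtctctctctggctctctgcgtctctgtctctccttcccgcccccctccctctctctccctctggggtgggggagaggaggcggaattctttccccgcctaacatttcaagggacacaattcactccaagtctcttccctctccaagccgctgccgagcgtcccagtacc
Ifitm1 (chr7:140967826-140968075, plus strand): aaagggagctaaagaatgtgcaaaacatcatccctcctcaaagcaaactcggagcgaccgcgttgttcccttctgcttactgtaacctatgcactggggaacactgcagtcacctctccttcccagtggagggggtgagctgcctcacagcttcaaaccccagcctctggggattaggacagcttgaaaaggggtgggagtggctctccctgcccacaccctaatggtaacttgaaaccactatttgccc
Hlf (chr11:90390918-90391167, minus strand): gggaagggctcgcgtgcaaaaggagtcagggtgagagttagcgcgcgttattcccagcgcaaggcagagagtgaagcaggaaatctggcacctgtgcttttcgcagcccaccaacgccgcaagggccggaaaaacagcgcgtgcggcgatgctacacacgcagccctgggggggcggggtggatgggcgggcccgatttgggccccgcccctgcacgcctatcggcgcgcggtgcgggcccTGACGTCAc

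The first motif was AAAAAA, the kind of A-tract that the ZNF384 protein is known to bind, which 19.2% of all 32851 promoter windows held. The other motifs searched were sites of other factors in blood cells. The GATA factor motif AGATAA occurred in 11.2% of the windows. The E-box CAGCTG, bound by basic helix-loop-helix factors such as Tal1, occurred in 16.3% of the windows. The motif of ETS factors, CCGGAAG, was found in 8.86% of them. The cyclic AMP response element TGACGTCA was found in 1.79% of them. The upstream Mecom start held 5 overlapping A-tract matches in 2 runs, which read as T on the printed strand, and a second Mecom start held none. Hlf held 1 cyclic AMP response element, and the Hmga2 and Ifitm1 windows held no match to any of the 5. The Procr window and 1 of the Mllt3 windows held 1 E-box each, and the Adgrg1 windows held none. The RefSeq starts of Mecom and Ifitm1 used here lie inside the longer gene bounds given above. A match is a stretch of letters, and binding was not measured.

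The share of stem and multipotent progenitors in which a molecule was found was lower in fusion for Mecom and Ifitm1, while for Hmga2 and Hlf the intervals overlapped. Each cell was thinned to 2000 UMIs, in 1 random draw, so that depth did not set the share. This left out 0 and 1 fusion cells and 1 wild-type cell. Mecom was found in 6 of 208 and 9 of 212 fusion cells, 2.88% (exact Clopper-Pearson 95% interval 1.07 to 6.17%) and 4.25% (1.96 to 7.91%), against 20 of 137 wild-type cells, 14.6% (9.15 to 21.6%). Its intervals did not meet. These intervals cover only the sampling of cells within a library, not the spread between libraries, so they are no test of genotype. Without thinning the shares were 12.0% and 12.2% against 29.0%. Ifitm1 was found in 41.3% and 35.8% of fusion cells against 74.5% of wild-type cells (66.3 to 81.5%), and those cells held a mean of 2.10 and 1.87 UMIs against 2.80. Both the share of cells and the molecules per cell with Ifitm1 were therefore lower in fusion. For Hmga2 the thinned shares, 11.5% and 12.7% against 15.3%, had overlapping intervals, and the unthinned ones were 35.1% and 42.7% against 55.1%. Hlf was found in 27.9% and 30.2% of fusion cells against 27.7% of wild-type cells.

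T, NK and innate lymphoid cells, taken here to lack Mecom and Hmga2, were used for the background share from free RNA. Their median depths were 2959 and 4244 UMIs in fusion and 4475 in wild type, against 9380, 10933 and 10166 in the stem class. Thinned alike, Mecom was found there in 0 of 99 and 0 of 91 fusion cells and 0 of 233 wild-type cells, which allows shares of up to 3.03%, 3.30% and 1.29%. Immature neutrophils, with more cells, gave 0 of 900 and 0 of 770 in fusion and 0 of 915 in wild type, which allows up to 0.333%, 0.390% and 0.328%. The stem class shares of Mecom lay above the immature neutrophil limits in all 3 libraries. In fusion replicate 1 the stem class share, 2.88%, was below the 3.03% that the T, NK and innate lymphoid cells allow. In T, NK and innate lymphoid cells Hmga2 was found in 0% and 0% of fusion cells and 0.858% of wild-type cells. Ifitm1 was found in 4.04% and 3.30% of the fusion cells of that class against 2.58% of its wild-type cells. The summed level of Hmga2 there was 2.15 and 0 CPM in fusion against 11.2 in wild type. It was 0 and 0.139 CPM against 0.542 in immature neutrophils. Whether free RNA gave the Hmga2 molecules of the T, NK and innate lymphoid cells was not tested. In immature neutrophils the shares were 0% and 0.13% against 0.109% for Hmga2, and 1.56% and 1.04% against 2.40% for Ifitm1.

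**Figure D3:**
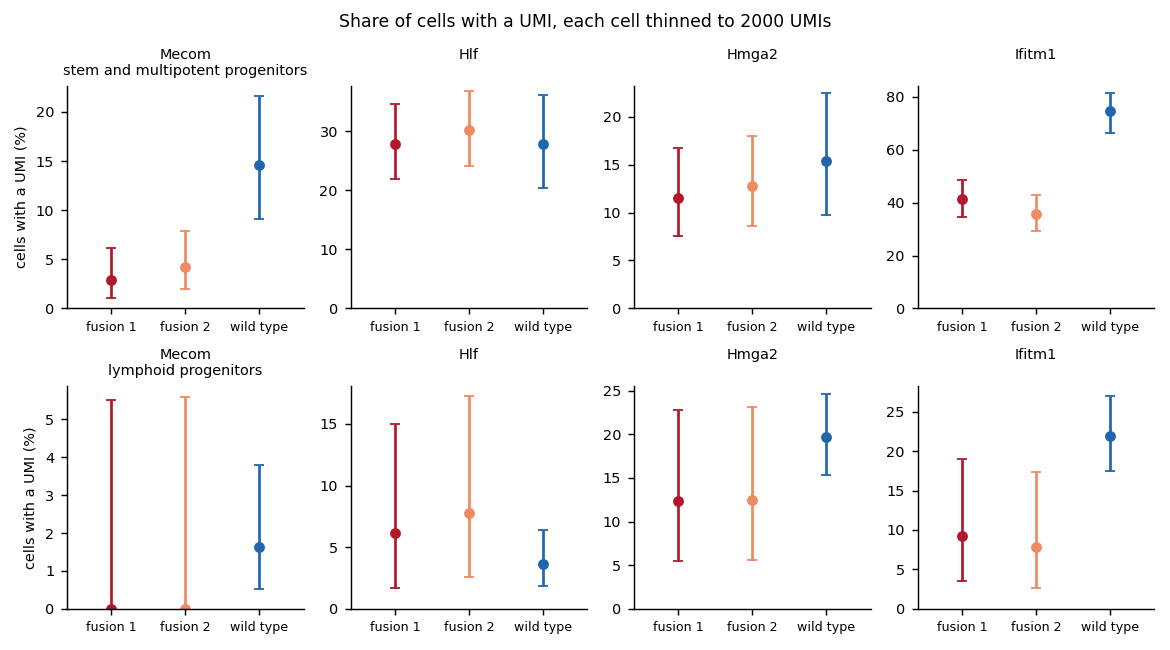
Percentage of cells with at least 1 UMI of Mecom, Hlf, Hmga2 and Ifitm1 after thinning each cell to 2000 UMIs, in stem and multipotent progenitors (top) and lymphoid progenitors (bottom), 1 point per library with exact 95% Clopper-Pearson intervals, fusion libraries left of wild type; each panel has its own axis. In the top row the wild-type Mecom point, 14.6%, and the wild-type Ifitm1 point, 74.5%, lie above the fusion intervals, and the Hlf points overlap.

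Single cells that held an Hlf molecule were looked at for the other genes. Among these thinned stem class cells, Mecom was found beside Hlf in 4 of 58 (6.90%) and 7 of 64 (10.9%) in fusion, against 12 of 38 (31.6%) in wild type. The fusion intervals (1.91 to 16.7% and 4.51 to 21.2%) met the wild-type interval of 17.5 to 48.7% in 1 of the 2 libraries. Ifitm1 accompanied Hlf in 58.6% and 40.6% of such cells in fusion against 89.5% in wild type (75.2 to 97.1%). Hmga2 did so in 8.62% and 14.1% against 15.8%, and Procr in 8.62% and 10.9% against 10.5%, both without a gap. Of the 9 genes, a cell of this class held a mean of 2.09 and 1.89 in fusion and 2.37 in wild type. These counts came from the same thinning draw as the shares above and are no separate evidence.

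Other genes of the stem cell network were called in both directions. Of 40 stem cell regulators other than the 9, 38 were tested in this class, and 1 was higher and 3 lower by edgeR, 10.5% of them beside 0.607% of all genes. The list was chosen with earlier results of these data known, so nothing is read from that share. It had a median log2 fold change of −0.11 beside −0.00075 over all genes tested. Socs2, an inhibitor of cytokine signalling, was at 2.38 and 3.97 CPM in fusion against 17.6 in wild type (−2.41 ± 0.55, edgeR adjusted p = 0.0121). Ifitm3, a relative of Ifitm1 in the same gene family, was at 358 and 408 CPM against 668 (−0.79 ± 0.20, edgeR adjusted p = 0.0393). Ly6a, the stem cell antigen Sca-1, was at 13.3 and 28.6 CPM against 77.7 (−1.84 ± 0.25, edgeR adjusted p = 1.16e-06), but it is one of the markers that named the class. Trim47, a ubiquitin ligase, was the gene called higher, at 36.6 and 32.9 CPM against 14.9 (1.23 ± 0.32, edgeR adjusted p = 0.0472).

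Among 35 paralogs and partners of the 9 genes, 24 were tested and 1 was called, Ifitm3 again, with a median of 0.06. Of 16 genes of multipotent cells and of priming towards a lineage, 14 were tested and 2 called, both higher (median 0.05). They were Car1, an erythroid carbonic anhydrase, at 48.0 and 55.2 CPM in fusion against 22.3 in wild type (1.22 ± 0.27, edgeR adjusted p = 0.00734), and Cpa3, a mast cell carboxypeptidase, at 244 and 178 CPM against 97.3 (1.12 ± 0.22, edgeR adjusted p = 0.00190). None of 12 cell cycle genes was called (median 0.12).

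Markers of other cells moved beside these results. In the stem class the 12 stem markers summed to 2684 and 2482 CPM in fusion and 2695 in wild type. The 12 erythroid progenitor markers summed to 918 and 827 CPM against 625, the 9 basophil and mast cell markers to 384 and 350.0 against 245, and the 9 monocyte markers to 95.5 and 79.8 against 180.4. The 9 mature neutrophil markers, a measure of free RNA here, summed to 743 and 657 CPM against 986. The 8 endothelial markers, some of which stem cells share, summed to 157 and 182 CPM against 165. Of these, Cdh5 and Flt1 were at 0 in all 3 libraries of the class, Kdr had 0 and 3 UMIs against 0, and Plvap had 1 and 5 UMIs against 3. Car1 belongs to the erythroid markers and Cpa3 to the basophil and mast cell markers. The part of these other cells and of free RNA in the calls was not tested. Fewer cells with a high level and less RNA per cell cannot be told apart in the summed values.

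In lymphoid progenitors, the next class along, Hmga2 and Ifitm1 were lower in fusion as well. Hmga2 was at 55.0 and 61.6 CPM in fusion (58.3 ± 4.67, SD, n = 2) against 136 in wild type (a log2 change of −1.24 ± 0.24, edgeR adjusted p = 0.000189). Ifitm1 was at 83.3 and 82.6 CPM in fusion (83.0 ± 0.507) against 174 in wild type (−1.08 ± 0.23, edgeR adjusted p = 0.00134). For both genes the fusion libraries stood near each other and far from wild type. These were 2 of the 6 genes tested, where 0.47% of 8088 genes were called lower and 0.729% in either direction. Hlf was at 51.7 and 35.0 CPM in fusion against 23.1 in wild type and was not called (0.87 ± 0.31, edgeR adjusted p = 0.291). Mecom had 0 and 1 UMIs in fusion and 14 in wild type, too few for the test.

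In this class edgeR used the trend over all genes in place of each gene's own spread. In the stem class it leaned mostly, though not wholly, on that trend. DESeq2 called 0 genes in the lymphoid class (45 at an unadjusted p under 0.05). Hmga2 ranged from −1.49 to −1.14 over 9 alternatives and passed in 7, and Ifitm1 from −1.19 to −0.26 and passed in 4. The mature neutrophil markers summed to 727 and 629 CPM in fusion against 1265 in wild type in this class, and the erythroid progenitor markers to 515 and 332 against 282; their part was not tested. Of the 40 other stem cell regulators 25 were tested, and Socs2 alone was called, here higher, at 41.7 and 21.0 CPM in fusion against 4.12 in wild type (2.85 ± 0.60, edgeR adjusted p = 0.00079). Of the 35 partners 15 were tested and none called (median −0.28 beside 0.0057 over all genes), and of the 16 priming genes 13 and none. The cell cycle gene Ube2c was lower, 1 of 12 called, at 11.7 and 16.8 CPM against 49.1 (−1.78 ± 0.35, edgeR adjusted p = 0.000189).

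The committed classes held fewer calls. In erythroid progenitors 1 of 8 genes tested was called, where 0.985% of 12994 genes were called lower and 1.36% in either direction: Hmga2, at 1.12 and 1.27 CPM in fusion against 3.38 in wild type (−1.52 ± 0.32, edgeR adjusted p = 0.0315). Its levels were low in every library, and it was called in 4 of 9 alternatives. Ifitm1 was at 49.4 and 31.2 CPM there against 65.9 (−0.75 ± 0.18, edgeR adjusted p = 0.0741). In granulocyte-monocyte progenitors 0 of 8 were called by edgeR, beside 0.127% of 11823 genes. DESeq2 called 0 of the 8 as well, and Ifitm1, Hlf and Adgrg1 had an unadjusted edgeR p under 0.05. Ifitm1 was at 99.1 and 93.5 CPM in fusion against 179 in wild type (−0.95 ± 0.15, edgeR adjusted p = 0.113), and Hlf at 12.3 and 12.4 CPM against 6.73 (0.82 ± 0.20, edgeR adjusted p = 0.354).

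In megakaryocytes 0 of 6 were called by edgeR or DESeq2, beside 0.392% of 9437 genes by edgeR, with 2 of them at an unadjusted p under 0.05. Mllt3, which supports megakaryocyte and erythroid fate in human cells, was at 12.5 and 17.996 CPM in fusion against 38.1 in wild type (−1.30 ± 0.32, edgeR adjusted p = 0.191), and Ifitm1 at 42.6 and 36.8 CPM against 78.4 (−1.02 ± 0.21, edgeR adjusted p = 0.0857). Esam, an adhesion molecule that platelets carry, was at 35.7 and 32.3 CPM against 45.5. In the Gata2 Meis1 progenitors 0 of 8 were called by edgeR or DESeq2, beside 0.232% of 10360 genes by edgeR, with Esam alone at an unadjusted p under 0.05. The fusion libraries differed widely there for Ifitm1, at 861 and 373 CPM against 970.2 in wild type, and Hmga2, at 21.3 and 20.7 CPM against 22.6, was level.

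Some list genes were called in the committed classes as well. Because the lists were chosen with earlier results of these data known, nothing is read from their shares in any class. In erythroid progenitors 4 of 37 other stem cell regulators tested were called by edgeR, 10.8% beside 1.36% of all genes (median −0.10 beside 0.0030 over all genes). The transcription factors Pbx3 (12.97 and 14.7 CPM in fusion against 5.60 in wild type) and Meis1 (20.8 and 28.3 CPM against 12.3) were higher there, and Ifitm3 (59.3 and 69.1 CPM against 104.9) and the immediate early gene Egr1 (11.7 and 12.8 CPM against 22.9) were lower. The priming genes Mpo (14.8 and 12.6 CPM against 31.7) and Dntt (0.275 and 0.872 CPM against 3.52) were lower, 2 of 16 tested, and none of the 16 was higher. In megakaryocytes 3 of 35 stem cell regulators tested were called, 8.57% beside 0.392% of all genes. Trim47 was higher (68.9 and 70.3 CPM against 15.7), and Pdzk1ip1 (62.6 and 55.6 CPM against 131) and the platelet adhesion protein Vwf (165 and 153 CPM against 315) were lower. Vwf is one of the markers that named the megakaryocyte class.

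In Gata2 Meis1 progenitors Cd34, a sialomucin of early progenitors, was higher, 1 of 35 stem cell regulators tested, at 61.4 and 63.5 CPM in fusion against 19.0 in wild type (1.67 ± 0.24, edgeR adjusted p = 0.0125). Cd34 is one of the stem markers by which that class was set apart. Of 13 priming genes tested, Cpa3 was higher there (86.8 and 86.4 CPM against 38.7), and the granule genes Mpo (43.6 and 46.9 CPM against 208) and Ctsg (23.7 and 19.9 CPM against 122) were lower. In basophils and mast cells 6 of 28 stem cell regulators tested were called, 21.4% beside 5.69% of all genes. Cd34 (91.8 and 74.8 CPM against 19.0), Meis1 (52.8 and 48.8 CPM against 21.9) and the cell cycle inhibitor Cdkn1c (4.34 and 11.6 CPM against 1.05) were higher. Cxcr4 (142 and 124 CPM against 195), Gimap1 (73.0 and 70.2 CPM against 118) and Cd9 (312 and 275 CPM against 484) were lower. There, too, Cd27 (22.4 and 29.7 CPM against 11.9) was higher, and Ighm (13.7 and 19.5 CPM against 46.6), Il7r (48.4 and 29.7 CPM against 86.9) and Nfil3 (44.8 and 32.5 CPM against 104), a repressor at the sites Hlf binds, were lower. None of the list genes was called in granulocyte-monocyte progenitors.

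In basophils and mast cells none of the genes was called. Ifitm1 was at 2829 and 2773 CPM in fusion against 1574 in wild type (0.73 ± 0.23, edgeR adjusted p = 0.0589), Adgrg1 at 271 and 224 CPM against 148 (0.63 ± 0.20, edgeR adjusted p = 0.0714), and Hlf at 8.67 and 12.6 CPM against 3.42 (1.56 ± 0.54, edgeR adjusted p = 0.0984). These 3 had an unadjusted p under 0.05, but 0 of the 6 genes tested passed with edgeR or DESeq2, in a class where edgeR called 5.69% of 10041 genes. The class joined 3 clusters with other proportions in fusion: the cluster led by Mcpt8 had 98 and 157 cells from fusion and 239 from wild type, that led by Cyp11a1 held 56 and 62 against 330, and that led by Gzmb held 23 and 30 against 24. Within clusters, a comparison added after the data were seen, Ifitm1 was at 1981 and 1704 CPM against 805 in the cluster led by Mcpt8 (1.10 ± 0.24, edgeR adjusted p = 0.0234; 0.497% of 9454 genes were called higher). In the cluster led by Cyp11a1 it was at 5051 and 8559 CPM against 2835 (1.22 ± 0.29, edgeR adjusted p = 0.00208, with 0.933% of 4718 genes higher). The 2 fusion libraries were far apart there. In the cluster led by Gzmb it was at 5272 and 3612 CPM against 3670.3 and was not called (0.27 ± 0.32, edgeR adjusted p = 0.967). For the clusters led by Cyp11a1 and Gzmb edgeR used the trend over all genes, so these p-values take no account of the gene's own spread.

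**Figure D4:**
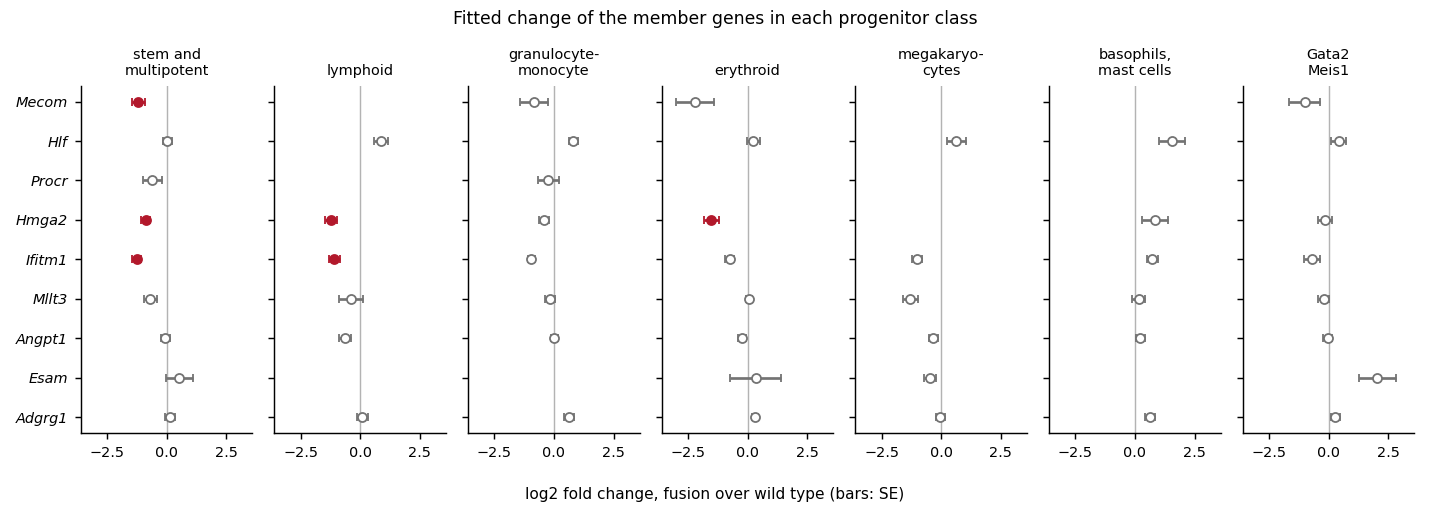
Fitted log2 fold change, fusion over wild type, of the 9 genes in 7 classes, with SE bars; filled red points passed an edgeR adjusted p of 0.05 and genes under the count filter have no point. The filled points are Mecom, Hmga2 and Ifitm1 in stem and multipotent progenitors, Hmga2 and Ifitm1 in lymphoid progenitors and Hmga2 in erythroid progenitors, all below 0.

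Whether the fusion effect itself differed between classes was tested with a class by genotype term and library as a block, for 5 classes against the stem class. The classes come from the same 3 libraries. None of the 9 genes differed from the lymphoid (0.0666% of 10504 genes called), granulocyte-monocyte (0.195% of 11822) or erythroid progenitors (0.356% of 12656). The lowest adjusted p-values there were those of Ifitm1 against erythroid progenitors (log2 difference, stem class minus the other, −0.50 ± 0.15, edgeR adjusted p = 0.128) and of Hlf against granulocyte-monocyte progenitors (−0.77 ± 0.20, edgeR adjusted p = 0.138). Against basophils and mast cells, where 3.41% of 10814 genes differed, 4 of the 9 did, all with the lower effect in the stem class. The log2 differences were −1.97 ± 0.09 for Ifitm1 (edgeR adjusted p = 1.3e-90), −1.67 ± 0.45 for Hmga2 (0.0123), −1.53 ± 0.45 for Hlf (0.0275) and −0.47 ± 0.14 for Adgrg1 (0.0361). Hmga2 and Hlf were low in basophils and mast cells, Hmga2 at 12.3 and 6.97 CPM in fusion against 4.74 in wild type. The log2 fold change of Hmga2 there ranged from 0.07 to 1.42 over 9 alternatives and passed in 1. Against Gata2 Meis1 progenitors, where 0.335% of 10744 genes differed, Ifitm1 did (−0.45 ± 0.11, edgeR adjusted p = 0.0188), although its 2 fusion libraries were far apart in that class. In the fits against erythroid progenitors, basophils and mast cells and Gata2 Meis1 progenitors edgeR replaced each gene's own spread by the trend over all genes, so these p-values, the very small one of Ifitm1 included, take no account of the gene's own spread.

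Across the 16 classes the genes were high in different places. The order below goes by the mean of the 3 library values of a class, with their lowest and highest. Mecom was highest in stem and multipotent progenitors (mean 28.1 CPM, 18.5 to 45.3), then Gata2 Meis1 progenitors (5.18, 2.22 to 7.73) and megakaryocytes (2.94, 0.818 to 5.01), and was at 0 in all 3 libraries in 6 classes. Hlf was highest in the same class (192 CPM, 185 to 201), then lymphoid progenitors (36.6, 23.1 to 51.7) and T, NK and innate lymphoid cells (34.2, 5.38 to 75.7). The last of these came mainly from the wild-type library. Procr was at 14.2 CPM (9.13 to 18.2) in stem and multipotent progenitors and at most 1.82 on average in any other class. Adgrg1 went down more evenly, through 521 CPM (490.4 to 554) in that class, 391 in megakaryocytes, 346 in Gata2 Meis1 progenitors and 249 in lymphoid progenitors. For these 4 genes the stem class did not overlap the next in order.

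Hmga2 was highest in lymphoid progenitors (84.3 CPM, 55.0 to 136), but its range overlapped that of the stem class (75.2, 50.8 to 109), and Gata2 Meis1 progenitors followed at 21.5. Ifitm1 was far highest in basophils and mast cells (2392 CPM on average, 1574 to 2829), then Gata2 Meis1 progenitors (735), mature neutrophils (641) and the stem class (517). Mllt3 was highest in erythroblasts (115 CPM, 106 to 123), which did not overlap T, NK and innate lymphoid cells (78.1, 61.0 to 96.8), and the stem class came in place 7 at 31.0. Angpt1 was highest in megakaryocytes (248, 202 to 281), which overlapped Gata2 Meis1 progenitors (225) and the stem class (209). Esam was highest in megakaryocytes (37.9 CPM, 32.3 to 45.5), then in the stem class (8.80, 6.75 to 10.9), and was at 0 in all 3 libraries in 10 classes. Of 15 neighbouring pairs in each order, 9 to 14 overlapped, so most places further down are not settled.

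**Figure D5:**
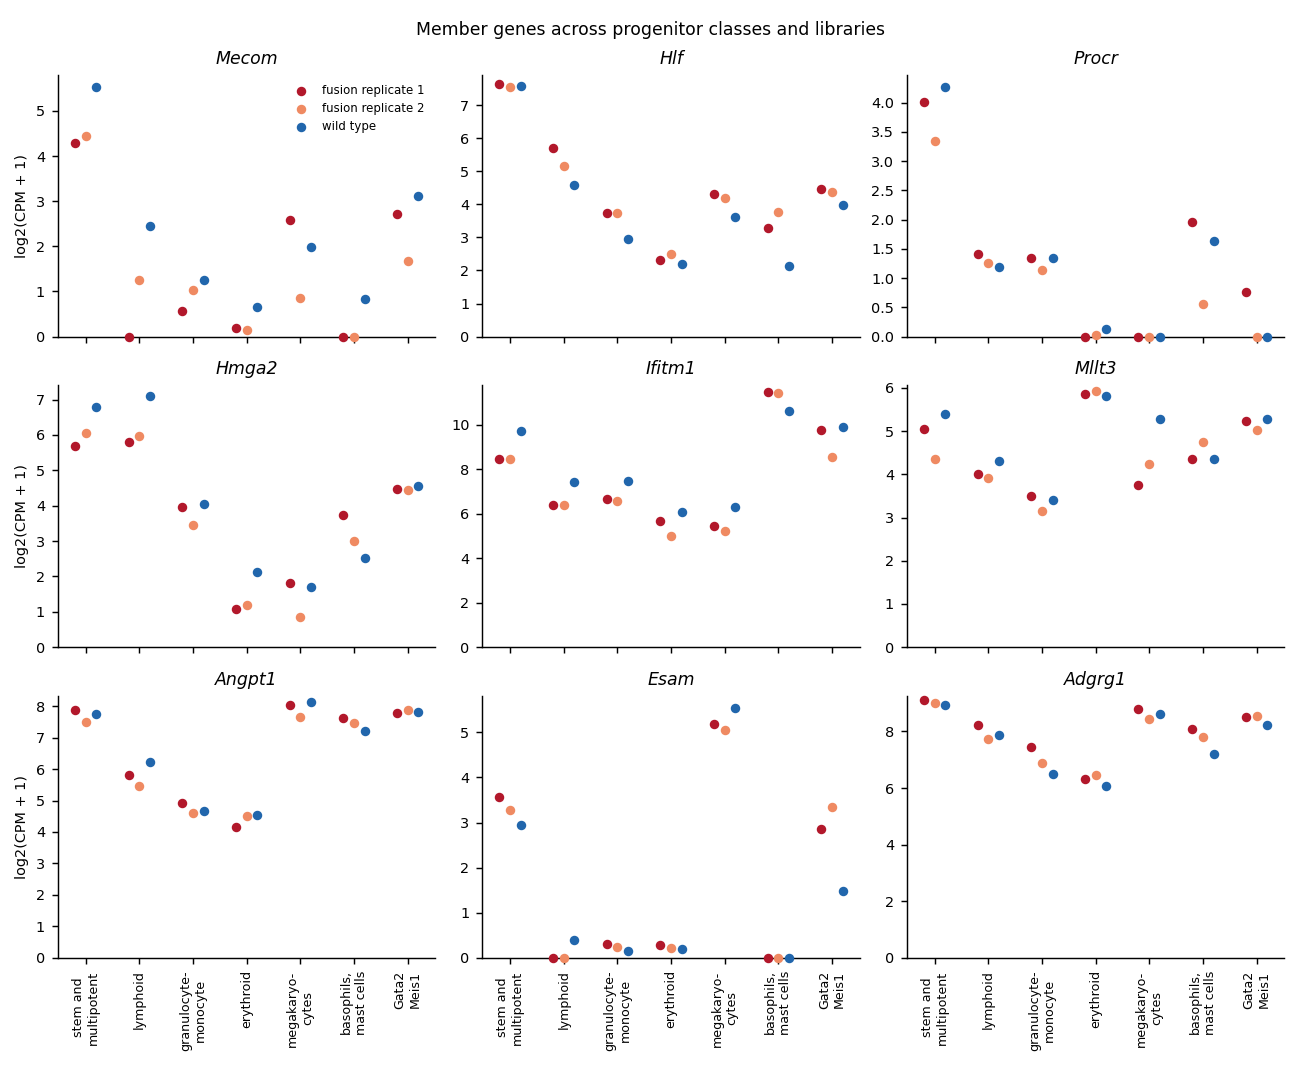
Log2(CPM + 1) of each of the 9 genes in 7 classes, 1 point per library (both fusion libraries left of wild type in each class). Mecom and Procr have their highest points in stem and multipotent progenitors, Esam in megakaryocytes and Ifitm1 in basophils and mast cells.

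Outside the progenitors 2 of the genes were lower in fusion. Hlf was found in T, NK and innate lymphoid cells at 21.5 and 5.38 CPM in fusion (10 and 3 UMIs) against 75.7 CPM in wild type (115 UMIs), a log2 change of −2.63 ± 0.40 (edgeR adjusted p = 3.21e-08), where 1.01% of 7545 genes were called lower. The 2 fusion libraries were far apart for Hlf, and edgeR leaned almost wholly on the trend over all genes in this class. This p-value therefore takes almost no account of the gene's own spread. The Hlf molecules lay mostly in the cluster led by Tcrg-C1, a T cell receptor gene, at 42.9 and 11.9 CPM in fusion against 152 in wild type. That cluster held 39 and 31 fusion cells and 113 wild-type cells, with or without Hlf. The cluster led by Ccl5 had 3.92 and 0 CPM against 0. Ifitm1 was lower in erythroblasts, at 2.001 and 1.26 CPM in fusion against 13.3 in wild type (−3.11 ± 0.45, edgeR adjusted p = 0.00275), where 0.959% of 9486 genes were called lower. It was also lower in monocytes, at 7.92 and 8.70 CPM against 23.9 (−1.53 ± 0.35, edgeR adjusted p = 0.00616), where 2.36% of 9741 genes were called lower. The DESeq2 test called none of these 3, and with DESeq2 size factors edgeR did not call Ifitm1 in monocytes (adjusted p = 0.0536).

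The genes whose pattern was most like that of 3 of the 9 were found by Pearson's r of log2(CPM + 1) over the 48 sums of 16 classes in 3 libraries, which share libraries and depth, so r is given as a description. For Mecom they were Nkx2-3 (0.905), Hoxa10 (0.887), Vldlr (0.840), Myct1 (0.822) and Efcc1 (0.821). For Hlf they were Afp (0.818), Ctla2b (0.798), Ctla2a (0.796), Nwd1 (0.795) and Vldlr (0.787). For Hmga2 they were Adgrl4 (0.872), Ltbp3 (0.843), Trp53cor1 (0.833), Afap1l1 (0.833) and Ctsf (0.833). The nearest gene was Fgd5 for Procr (0.836), Cdk6 for Adgrg1 (0.912), Ccdc8 for Angpt1 (0.940), Ier3 for Ifitm1 (0.862) and Ssbp3 for Mllt3 (0.878). Among the 9 themselves r was highest between Angpt1 and Adgrg1 (0.863) and between Hlf and Hmga2 (0.748), and Mllt3 reached at most 0.460 with any other.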

How the data were processed

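Bone marrow of 2 fusion libraries and 1 wild-type library was profiled by droplet single-cell RNA sequencing, and the authors deposited raw UMI counts per gene and barcode. Per the submitters' processing notes the tools were bcl2fastq 2.20.0.422 and Cell Ranger 5.0.1 with GRCm38, while the file headers name Cell Ranger 5.0.0. Cells needed 1000 UMIs, 400 genes and no more than 10% mitochondrial UMIs, and doublets predicted by the scrublet method of scanpy 1.11.5 (expected rate 0.06) were removed (231 and 319 in fusion, 191 in wild type). Cells were clustered with leidenalg 0.10.2 on 2000 variable genes, 30 components and 15 neighbours at resolution 2, which replaced the planned 1 after the data were seen. Clusters were named by marker lists with at least 3 genes found in 10% of cells, and the 9 genes stood in neither step.

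Counts were summed per library and class and tested with edgeR 4.0.16 (TMM, filterByExpr, genotype alone in the model). A gene was called at an adjusted p under 0.05 (Benjamini-Hochberg over the genes of its class). The fits were also run on simulated counts in which all genes had the same spread between libraries. That run does not test genes with a spread of their own. CPM are on the class totals. DESeq2 1.42.0, its size factors, other filters and other class borders were alternatives. The 9 genes and the lists were chosen with earlier results of these data known. All 9 are named, with every list gene that passed in a progenitor class and the genes of highest r, except 1 result not reported here. Gene positions are from GENCODE, promoters from RefSeq.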

Additional observations from a re-analysis of the deposited data

Results flagged for a closer look

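The change from wild type to fusion libraries differed between the stem class and another class, by the test of the difference itself. This held for 4 genes against basophils and mast cells and for 1 against Gata2 Meis1 progenitors. In both fits edgeR used the trend over all genes, so the test takes no account of the gene's own spread. With 1 wild-type library, genotype and library cannot be told apart. Against basophils and mast cells the log2 difference, stem class minus the other, was −1.97 for Ifitm1 (−1.26 in the stem class and 0.73 in basophils and mast cells), −1.67 for Hmga2, −1.53 for Hlf and −0.47 for Adgrg1. With DESeq2 size factors 3 of these 4 differed and without the gene filter 2. Against Gata2 Meis1 progenitors it was −0.45 for Ifitm1, which also differed under both of these settings. Basophils and mast cells were joined from 3 clusters that the libraries filled unequally, and the part of that in the differences was not tested. Hmga2 (12.3 and 6.97 CPM in fusion against 4.74 in wild type) and Hlf were low in that class.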

How the results depend on the processing

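Genes called, over both directions, came to 62 in stem and multipotent progenitors, 59 in lymphoid, 15 in granulocyte-monocyte, 177 in erythroid progenitors, 37 in megakaryocytes, 571 in basophils and mast cells and 24 in Gata2 Meis1 progenitors, and calls among the 9 genes to 3, 2, 0, 1, 0, 0 and 0. With DESeq2 size factors the genes called were 35 in the stem class (2 of the 9 genes, Hmga2 lost), 27 in granulocyte-monocyte, 303 in erythroid progenitors (2 of the 9 genes), 24 in megakaryocytes and 14 in Gata2 Meis1 progenitors. The DESeq2 test called 0 in the stem class, the lymphoid class and megakaryocytes (66, 45 and 100 at an unadjusted p under 0.05), 63 in erythroid progenitors, 36 in basophils and mast cells, 4 in Gata2 Meis1 progenitors and 0 of the 9 genes in any class. Without the gene filter 322 were called in granulocyte-monocyte progenitors (3 of the 9), 0 in erythroid progenitors (0 of the 9), 161 in megakaryocytes (2), 118 in Gata2 Meis1 progenitors, and 2 of the 9 in basophils and mast cells. With equal cells per library the counts were 19 in the lymphoid class, 49 in granulocyte-monocyte (1 of the 9), 2 in erythroid progenitors (0), 13 in megakaryocytes, 213 in basophils and mast cells and 100 in Gata2 Meis1 progenitors.

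With predicted doublets kept, 0 genes were called in the stem class (0 of the 9), 109 in the lymphoid class, 7 in granulocyte-monocyte and 18 in erythroid progenitors (0 of the 9). With the 9 genes allowed among the variable genes, 3 were called in the stem class (1 of the 9), 1 in the lymphoid class (0), 5 in granulocyte-monocyte and 261 in erythroid progenitors (2 of the 9), 943 in basophils and mast cells (3) and 9 in Gata2 Meis1 progenitors. With classes set per cell by marker score, 58 were called in granulocyte-monocyte (1 of the 9) and 30 in erythroid progenitors (0), and of the 9 genes 1 in the lymphoid class and 1 in basophils and mast cells. At Leiden resolution 0.5 and 1 no stem class formed; the lymphoid class then had 572 and 491 called (4 of the 9 at each), granulocyte-monocyte progenitors 6 and 23, erythroid progenitors 2 of the 9 at each, and Gata2 Meis1 progenitors 84 at 0.5. With stem and lymphoid progenitors joined, 399 were called. Of the 9 genes, 2 differed in effect from granulocyte-monocyte progenitors with DESeq2 size factors, and 2 from basophils and mast cells without the filter.

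The direction turned, on the log2 scale and for results not called as reported, for Hlf in the stem class (−0.32 with the 9 genes in the clustering, −0.089 with classes per cell, −0.081 with equal cells), Procr (0.52 joined), Angpt1 (0.12 with doublets kept, 0.51 joined, 0.0160 with equal cells), Esam (−0.055 with the 9 genes in the clustering) and Adgrg1 (−0.0011 with classes per cell). It turned for Angpt1 in the lymphoid class (0.64 and 0.65 at resolutions 0.5 and 1, 0.0153 with the 9 genes in the clustering) and in granulocyte-monocyte progenitors (−0.027 with the 9 genes in the clustering, −0.087 with doublets kept). It also turned for Adgrg1 in megakaryocytes (0.037 and 0.0197 under the same settings) and Mllt3 in Gata2 Meis1 progenitors (0.0176 and 0.0119 at resolutions 0.5 and 1). In the mixed lymphoid class at resolutions 0.5 and 1, Hlf (1.14 and 1.21), Esam (1.88 and 1.96) and Angpt1 were called higher and Hmga2 lower (−1.15 and −1.14). The cause was not tested. Leaving out a fusion library, 1 against 1 with no test, gave −1.32 to −1.09 for Mecom in the stem class, −1.13 to −0.68 for Hmga2, −1.30 to −1.22 for Ifitm1 and 0.01 to 0.05 for Hlf. Low counts limit Mecom, Procr and Esam. No paired analysis was possible because replicate numbers were given only in accession order and there is 1 wild-type library.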

Other observations

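In basophils and mast cells Angpt1, the ligand of Tek, was found in 28.6% and 23.8% of fusion cells against 15.2% of wild-type cells after thinning to 2000 UMIs. Its summed level was 197 and 178 CPM in fusion against 149 in wild type and was not called. Thinned alike, Adgrg1 was found in 33.7% and 31.5% against 26.2%, and Ifitm1 in 83.4% and 79.8% against 70.9%. Without thinning the shares were 67.8% and 70.7% against 49.9% for Adgrg1 and 92.7% and 91.2% against 81.6% for Ifitm1, at median depths of 6351 and 7678 UMIs in fusion and 4594 in wild type. These shares come from cells of 1 wild-type library and of a joined class, and carry no test of genotype.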
